A study of Mus musculus with 8 samples.

Results

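The genes followed here across neurons of the mouse stellate ganglion are 9 of the M-current, sodium-activated and calcium-activated potassium channels: Kcnq3, Kcnq5, Kcnt1, Kcnt2, Kcnma1, Kcnmb4, Kcnn1, Kcnn2 and Kcnn3. They were chosen by name, as members of these channel families, and all 9 were among the 19224 genes of the table. The neurons came from adult male C57BL6/J mice of 8 to 10 weeks, with no other allele named in the labels, whose hearts had been injected with an adeno-associated virus (AAV) carrying GFP and whose front paws had been injected with one carrying tdTomato. No untreated group was sequenced, and the groups compared here are the neuronal subtypes that the authors defined by clustering these same cells. The table held 1303 neurons in 8 subtypes: 316 NA1a, 311 NA1b, 239 NA1c, 175 NA2 and 99 NA3 neurons, labelled as noradrenergic, 64 Ach1 and 62 Ach2 neurons, labelled as cholinergic, and 37 Glut neurons, labelled as glutamatergic. Left and right ganglia were combined for dissociation, and how neurons were then assigned to single mice is not given in the sources used here.

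The values were UMIs (counted RNA molecules), and a level here is the mean over neurons of a gene's UMIs per 10000 UMIs of the neuron. The mouse was the replicate. Of the 8 mouse names, 5 matched 1 sample each (1002 neurons), and the 301 neurons of the other 3 names entered pooled values only. The 5 mice held 165 to 235 neurons and 916296 to 1196621 UMIs each, and all came from the second of the batches named in the labels. A mouse gave a level for a subtype only where it had at least 10 neurons of it, which left 5 mice for NA1a, NA1b, NA1c and NA2, 3 for NA3 (replicates 2, 4 and 5), 2 for Ach2, 1 for Ach1 and none for Glut. Depth differed between subtypes, with medians of 8182 UMIs per neuron in NA1a, 6644 in NA3, 3338 in NA1b, 2779 in NA1c and 2342 in NA2 of these mice. All 8 noradrenergic marker genes were detected in each of the 5 noradrenergic subtypes. The Ach1 neurons had no UMI of Chat, the enzyme that makes acetylcholine, and in the Glut neurons the glutamate transporter markers summed to a level of 0.554 beside 111 for the noradrenergic markers, so these names are used only as labels.

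Cell barcodes were shared between libraries. There were 21 barcodes that occurred in more than 1 library, in 73 neurons of the matched mice, and 96 of their 98 pairs carried the same subtype label. They made up 55 of the 150 NA2 neurons, from 17 barcodes, and 15 of the 46 Ach2 and 3 of the 17 Glut neurons. No NA1a, NA1b, NA1c, NA3 or Ach1 neuron was among them. Whether such neurons are 1 cell counted in several mice was not tested, and tested results with NA2 are therefore given with and without them.

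M channels are voltage-gated potassium channels that open slowly below firing threshold and hold back repetitive firing, and in sympathetic neurons they close when muscarinic receptors act through Gq and phospholipase C. Sodium-activated channels (Kcnt1, or Slack, and Kcnt2, or Slick) open as sodium enters during firing. BK channels (pore Kcnma1, auxiliary subunit Kcnmb4) open with voltage and calcium together, whereas SK channels (Kcnn1 to Kcnn3) open with calcium alone and carry the slower afterhyperpolarization of many sympathetic neurons.

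Among the 5 noradrenergic subtypes, the sodium-activated channel gene Kcnt1 had its highest level in NA1b and its lowest in NA2, and the BK auxiliary subunit gene Kcnmb4 was low in NA1b and NA3 and higher in NA1a, NA1c and NA2. In the same 5 subtypes the M-channel genes Kcnq3 and Kcnq5 were lowest in NA3, and the BK pore gene Kcnma1 was lowest in NA2. Of the SK genes, Kcnn2 was highest in NA1b and Kcnn3 lowest in NA2. At least 1 UMI of the 9 genes was found in 1154 of the 1303 neurons. Total UMIs over all neurons were 1705 for Kcnq3, 1627 for Kcnt1, 1059 for Kcnmb4, 1058 for Kcnma1, 356 for Kcnq5, 272 for Kcnn3, 164 for Kcnn2, 30 for Kcnn1 and 4 for Kcnt2. Only 7 of the 9 passed the filter on low values (a level of at least 0.5 in 3 mouse and subtype profiles), while Kcnt2 and Kcnn1 did not and were not tested. Kcnn2 passed through NA1b alone, so that the direction of its differences from NA1b was set by the filter and they are given as descriptions. Kcnn3 passed through NA1a and NA1c alone, so the filter favoured a higher level there, and its differences from them are read with that limit.

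**Figure D1:**
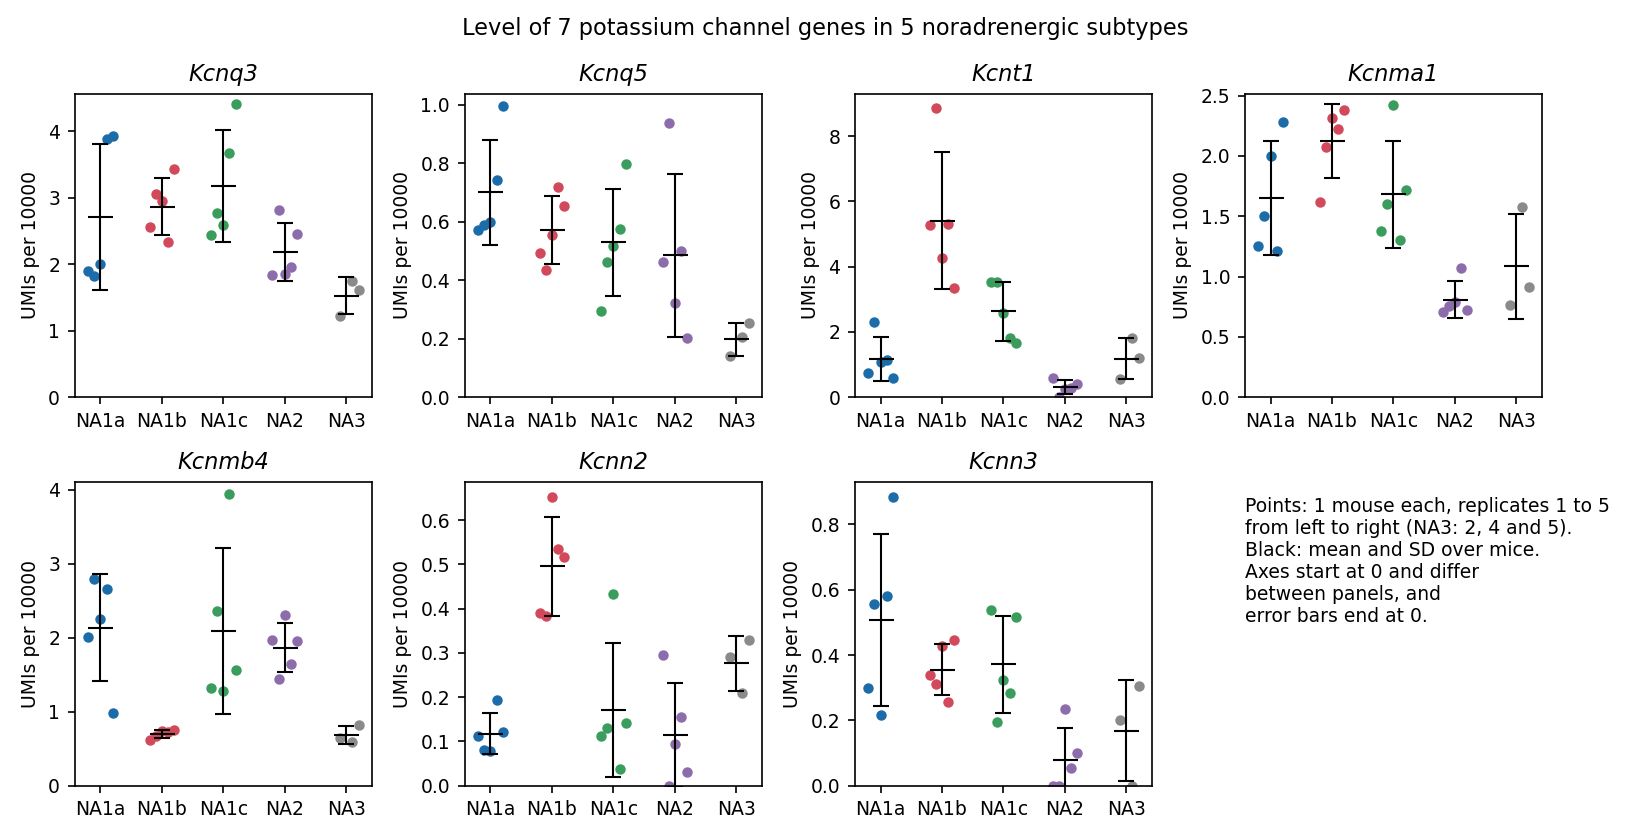
Level (UMIs per 10000, vertical axis, starting at 0) of the 7 tested genes in the 5 noradrenergic subtypes (horizontal axis). Each point is 1 mouse and the black bars are the mean and SD over mice. Kcnt1 was highest in NA1b in every mouse, with levels of 3.34 to 8.87, and Kcnmb4 stood between 0.614 and 0.753 in NA1b of the 5 mice.

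Differences were tested with limma on log2(level + 0.1), blocked on mouse, and p was adjusted over 6185 genes by Benjamini-Hochberg, and a gene was called at an adjusted p below 0.05. Because the subtypes were defined from the same cells, these tests measure how steady a difference was over mice and are not independent evidence of it. Of the 7 tested genes, 3 were called between NA1a and NA1b (Kcnmb4 higher in NA1a, Kcnt1 and Kcnn2 lower), where 4.14% of all genes tested were called. Kcnn2 passed the filter only where NA1b was high, and Kcnt1 was stained by the authors as a marker of NA1b. The calls of these genes add nothing to that count, which leaves Kcnmb4. Between NA1a and NA1c 1 was called (Kcnt1, lower in NA1a), where 5.68% of all genes were called, and between NA1b and NA1c 1 (Kcnmb4, lower in NA1b), where 1.54% were called. The median of all genes tested was -0.00, -0.01 and 0.01 in these 3 comparisons on the log2 scale (NA1a minus NA1b, NA1a minus NA1c and NA1b minus NA1c), and the medians of the 7 genes were -0.15, -0.03 and 0.13.

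Comparisons with NA2 and NA3 had a far larger background. Against NA2, 3 of the 7 genes were called from NA1a, where 48.6% of all genes were called, 5 from NA1b, Kcnn2 among them, where 56.3% were called, and 4 from NA1c, where 59.9% were called. Against NA3, 4 were called from NA1a, where 19.1% of all genes were called, 4 from NA1b (22.6% of all genes), 3 from NA1c (26.8%) and 4 from NA2 (39.2%). The median gene was itself higher in the NA1 subtypes than in NA2 or NA3, by 0.23 to 0.29 on the log2 scale, and lower in NA2 than in NA3 by 0.11. With each profile centred on its median gene, the sign of each called difference was kept, 1 call was gained and 4 were lost, among them Kcnq3 between NA1c and NA2 (log2 difference 0.18, limma adjusted p = 0.482). Shares of 3 to 5 genes of 7 against NA2 were near that background. Kcnn3 was among the calls of each NA1 subtype over NA2 and of NA1a over NA3. It passed the filter only through NA1a and NA1c, so its calls from them add nothing to these counts. Kcnt1, the authors' marker of NA1b, was among the calls from NA1b against both NA2 and NA3.

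**Figure D2:**
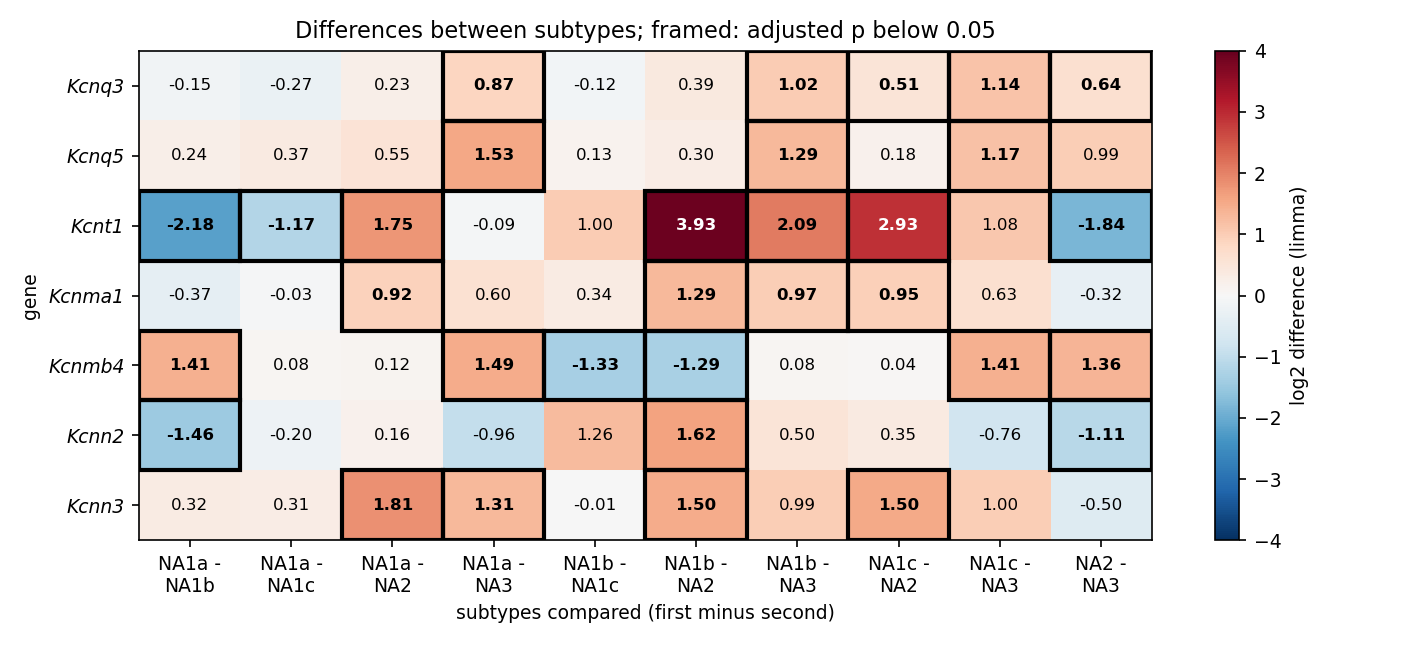
Log2 difference in level between each pair of noradrenergic subtypes (columns, first minus second) for the 7 tested genes (rows), coloured from blue (lower in the first) to red (higher in the first). Framed cells had a limma adjusted p below 0.05. The largest framed difference of Kcnt1 was 3.93 (NA1b over NA2), and the Kcnmb4 row holds framed cells of both signs around NA1b.

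Kcnq3 and Kcnq5, which form M-channel pores, were called in no pair of NA1 subtypes. Kcnq3 (GRCm38, chromosome 15, 65986387 to 66286642, minus strand) had levels of 1.90, 1.82, 2.00, 3.88 and 3.93 in NA1a of replicates 1 to 5. In NA1b they were 2.56, 3.05, 2.95, 2.34 and 3.44, and in NA1c 2.45, 2.76, 2.60, 3.68 and 4.41. These ranges overlapped throughout, replicates 4 and 5 had the highest Kcnq3 in both NA1a and NA1c, and the log2 differences between NA1 subtypes were -0.27 to -0.12, with an SE of 0.21. In NA2 the 5 mice gave 1.84, 2.82, 1.85, 1.95 and 2.46, a range that overlapped each NA1 subtype.

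In NA3 the Kcnq3 levels were 1.22, 1.75 and 1.62 in replicates 2, 4 and 5, below every mouse of the other 4 subtypes. Kcnq3 was higher than in NA3 by 0.87 ± 0.25 (SE) in NA1a (log2 difference, limma adjusted p = 0.0124), by 1.02 ± 0.25 in NA1b (adjusted p = 0.00245), and by 1.14 ± 0.25 in NA1c (adjusted p = 0.000760). The same 3 NA3 profiles entered each of these comparisons. After neurons were thinned to 2000 UMIs, none of the 3 was called (log2 differences 0.51, 0.69 and 1.05, adjusted p = 0.431, 0.249 and 0.0577), and the NA1a call was also lost without replicate 5 (0.74, adjusted p = 0.127). The Kcnq3 differences of NA2 from NA3 (0.64) and of NA1c from NA2 (0.51) were called but lost under 8 of 15 alternatives each, the first without replicate 1, 2, 3 or 5 and the second without replicate 1, 3, 4 or 5. Without the shared barcodes the first was 0.71 (limma adjusted p = 0.0458) and the second 0.41 (adjusted p = 0.141).

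Kcnq5 (chromosome 1, 21398403 to 21961942, minus strand) had levels of 0.572, 0.590, 0.599, 0.743 and 0.995 in NA1a. In NA1b it had 0.493, 0.435, 0.556, 0.719 and 0.654, and in NA1c 0.294, 0.461, 0.518, 0.575 and 0.796. NA1a was above NA1b and NA1c in 5 of 5 mice, but the ranges overlapped and the log2 differences of 0.24 ± 0.34 and 0.37 ± 0.34 were not called (adjusted p = 0.801 and 0.603). In NA3 the 3 mice had 0.139, 0.204 and 0.252, below every mouse of the NA1 subtypes. The log2 difference of NA1a over NA3 was 1.53 ± 0.41 (adjusted p = 0.00595), that of NA1b over NA3 was 1.29 ± 0.41 (adjusted p = 0.0180), and that of NA1c over NA3 was 1.17 ± 0.41 (adjusted p = 0.0303). The NA1c call was lost under 7 of 15 alternatives, 4 of them the omission of replicate 2, 3, 4 or 5, and the NA1b call was lost without replicate 2 or 4. After thinning none of the 3 was called (1.80, 1.54 and 1.64, adjusted p = 0.0824, 0.130 and 0.0992).

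NA2 was uneven for Kcnq5, at 0.463, 0.939, 0.324, 0.498 and 0.204 in replicates 1 to 5. With all neurons no difference between NA2 and an NA1 subtype was called. Without the shared barcodes the NA2 mean over 4 mice was 0.273, and NA1a, NA1b and NA1c were then called higher than NA2, by 1.41, 1.17 and 1.04 on the log2 scale (limma adjusted p = 0.00306, 0.0110 and 0.0213).

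NA3 carried transcripts of other cell types. The fibroblast markers summed to 11.7 to 31.3 in the 3 NA3 mice and to 0.5 to 3.3 in the mice of the other 4 subtypes. For the Schwann cell markers the sums were 12.7 to 18.2 and 1.9 to 4.0. All 10 satellite glia markers were higher in NA3 than in each of NA1a, NA1b, NA1c and NA2, and their summed level ranged from 228 to 449 in the 3 NA3 mice against 4.42 to 31.3 in the mice of the other 4 subtypes. The 8 noradrenergic markers summed to 26.2 to 34.3 in NA3 and to 46.1 to 75.4 in the others. The part of the transcripts of other cells in the lower Kcnq3, Kcnq5 and Kcnmb4 of NA3 was not tested. Lower RNA per neuron and a mixture of neuronal RNA with that of other cells cannot be told apart here.

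Kcnt1 (chromosome 2, 25863734 to 25918273, plus strand), the pore of the Slack channel, was stained by the authors as a marker of NA1b, so its NA1b level is a description of that choice. In NA1b its levels were 5.27, 8.87, 4.27, 5.31 and 3.34 in replicates 1 to 5. In NA1c they were 3.55, 3.53, 2.58, 1.83 and 1.67, and in NA1a 0.755, 2.31, 1.08, 1.14 and 0.585. In every mouse the order was NA1b above NA1c above NA1a. The NA1b and NA1a ranges did not overlap, whereas those of NA1c overlapped both. Replicate 2 had the highest Kcnt1 of the 5 mice in NA1a and in NA1b, but not in NA1c.

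NA1a lay below NA1b by 2.18 ± 0.37 (SE) in Kcnt1 on the log2 scale, a fold of 4.52 (limma adjusted p = 0.000102), and this call held under all 16 alternatives. The middle step was less certain. NA1a was lower than NA1c by a log2 difference of -1.17 ± 0.37 (adjusted p = 0.0462), a call lost under 9 of 16 alternatives, among them the omission of replicate 1, 3, 4 or 5. NA1b was higher than NA1c in 5 of 5 mice, by 1.00 ± 0.37, and did not pass over all genes (adjusted p = 0.246). That difference was called when only the 3 NA1 subtypes were fitted, with pseudocounts of 0.5 or 1, and on means of the natural log values (adjusted p from 2.83e-06 to 0.0171).

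NA2 held almost no Kcnt1. Its levels were 0.584, 0, 0.258, 0.296 and 0.394, from 12 UMIs in 150 neurons. The NA2 and NA1a ranges all but touched, at 0.5841 in NA2 of replicate 1 (3 UMIs) and 0.5851 in NA1a of replicate 5. NA2 was lower than NA1b by 3.93 ± 0.37 on the log2 scale (limma adjusted p = 1.44e-11), than NA1c by 2.93 ± 0.37 (adjusted p = 1.21e-08) and than NA1a by 1.75 ± 0.37 (adjusted p = 0.000139). The shared barcodes accounted for 55 of these neurons and for 1 of the 12 UMIs. Without them NA2 had levels of 1.58, 0.238, 0.438 and 0.447 in replicates 1, 3, 4 and 5. The first, from 10 neurons, lay within the NA1a range. The difference was then 2.94 from NA1b and 1.94 from NA1c, both still called (limma adjusted p = 4.93e-09 and 1.19e-05), and 0.77 from NA1a, which was no longer called (adjusted p = 0.0719).

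In NA3 Kcnt1 was at 0.543, 1.82 and 1.19 in replicates 2, 4 and 5, overlapping NA1a. NA1b exceeded NA3 by 2.09 ± 0.44 (adjusted p = 0.000351), the difference of NA1a from NA3 was -0.09 ± 0.44, and that of NA1c from NA3 was 1.08 ± 0.44, which was not called (adjusted p = 0.0591). NA2 was lower than NA3 by a log2 difference of -1.84 ± 0.44 (adjusted p = 0.000841), and by -0.79 without the shared barcodes (adjusted p = 0.134).

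Counted per neuron, Kcnt1 was frequent in NA1b and scattered elsewhere. The share of neurons with a UMI was 86.2% ± 3.86 (SD, n = 5 mice) in NA1b, 50.9% ± 10.9 in NA1a, 47.7% ± 3.64 in NA1c, 41.7% ± 7.39 in NA3 (n = 3) and 7.17% ± 6.49 in NA2. These shares moved with depth. After thinning to 2000 UMIs, which kept 176 of 182 NA1a, 195 of 237 NA1b and 169 of 216 NA1c neurons, they were 63.3% ± 17.7 in NA1b, 34.2% ± 6.25 in NA1c and 17.3% ± 6.00 in NA1a. In the thinned neurons pooled over mice, 29.7% of 195 NA1b neurons had 2 or more Kcnt1 UMIs, against 11.8% of 169 NA1c, 3.41% of 176 NA1a and 0.990% of 101 NA2 neurons. The table holds neurons only, so the share that free RNA alone gives in cells without these channels was not measured here, and the NA2 share is the lowest available. Of the 95 NA2 neurons without a shared barcode 9.47% had a Kcnt1 UMI, and of the 55 with one 1.82%.

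**Figure D3:**
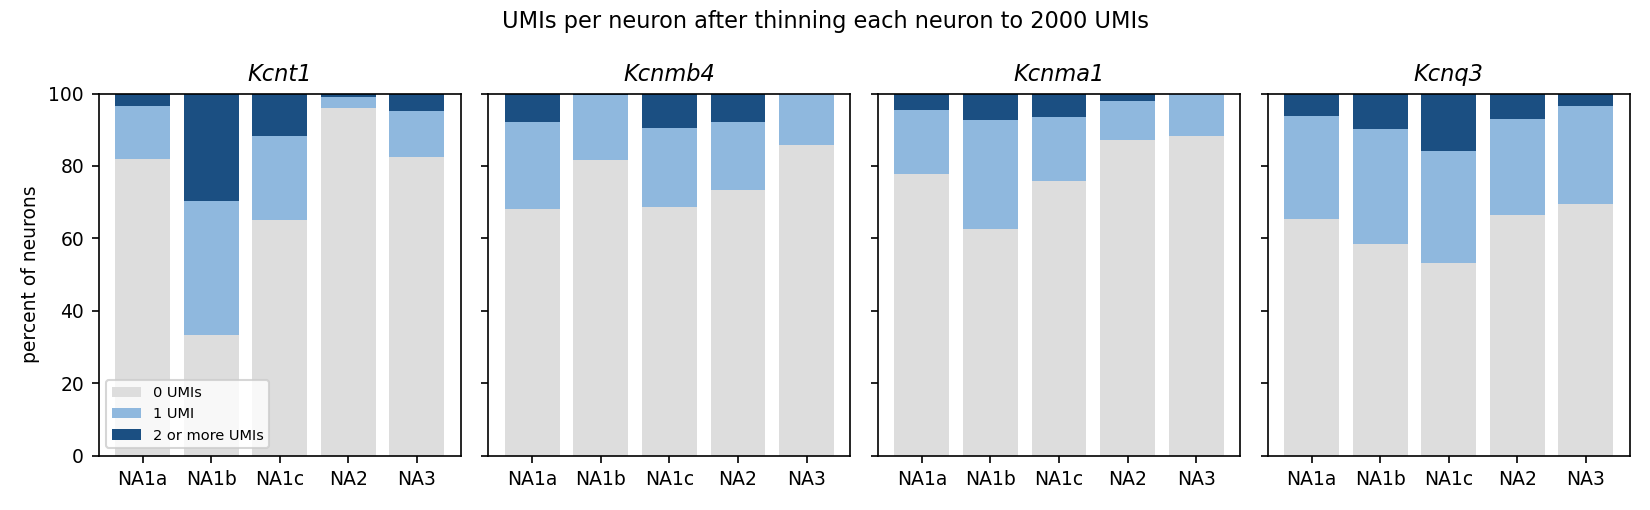
Percent of neurons (vertical axis, 0 to 100) with 0, 1 and 2 or more UMIs of Kcnt1, Kcnmb4, Kcnma1 and Kcnq3 in the 5 noradrenergic subtypes (horizontal axis), with neurons of the 5 mice pooled and each thinned to 2000 UMIs. For Kcnt1, 33.3% of NA1b neurons had 0 UMIs, against 65.1% of NA1c and 81.8% of NA1a neurons.

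Kcnt2, which encodes the related Slick channel, had 4 UMIs in 3 neurons, 2 of them NA1b and 1 Glut. Finding it in 0 of 316 NA1a neurons leaves room for a share of 0.949% at most, and 0 of 239 NA1c or 175 NA2 neurons for 1.26% or 1.71%. These limits cover counting error only.

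The 2 BK genes did not move together. Kcnma1, the pore, had levels of 1.26, 1.51, 2.00, 1.21 and 2.29 in NA1a (chromosome 14, 23289431 to 24014491, minus strand). In NA1b they were 1.62, 2.07, 2.32, 2.23 and 2.38, and in NA1c 1.38, 1.60, 2.42, 1.30 and 1.72. NA1b was above NA1a in 5 of 5 mice, but the ranges overlapped and no NA1 pair was called (NA1a minus NA1b -0.37 ± 0.24, limma adjusted p = 0.478). NA2 was lower and narrow, at 0.709, 0.752, 0.788, 1.08 and 0.723, below every mouse of the NA1 subtypes.

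NA2 was below NA1a in Kcnma1 by 0.92 ± 0.24 on the log2 scale (adjusted p = 0.00176), below NA1b by 1.29 ± 0.24 (adjusted p = 2.05e-05), and below NA1c by 0.95 ± 0.24 (adjusted p = 0.000841). Without the shared barcodes these became 0.70, 1.08 and 0.74, all still called (adjusted p = 0.0302, 0.000857 and 0.0177). In NA3 the 3 mice had 0.762, 1.58 and 0.912, and only NA1b was called higher, by 0.97 ± 0.29 (adjusted p = 0.0114), a call lost without replicate 2 or 5.

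Kcnmb4 encodes the beta 4 subunit, which slows BK gating and lowers toxin block (chromosome 10, 116417861 to 116473878, minus strand). In NA1b its levels were 0.614, 0.667, 0.733, 0.727 and 0.753. In NA1a they were 2.01, 2.80, 2.25, 2.65 and 0.976, in NA1c 1.32, 2.36, 1.28, 3.94 and 1.56, and in NA2 1.98, 1.45, 2.31, 1.65 and 1.95. Every NA1b mouse lay below every mouse of NA1a, NA1c and NA2. NA1b was also the tightest group, with a highest over lowest ratio of 1.23 against 2.86 in NA1a and 3.07 in NA1c. Its levels came from only 13, 25, 12, 19 and 17 UMIs in replicates 1 to 5. With such counts the narrow range cannot be read as a trait of NA1b. NA3 was low as well, at 0.645, 0.590 and 0.824.

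NA1a exceeded NA1b in Kcnmb4 by 1.41 ± 0.27 on the log2 scale, a fold of 2.66 (limma adjusted p = 0.000829). NA1b was lower than NA1c by -1.33 ± 0.27 (adjusted p = 0.00223) and lower than NA2 by -1.29 ± 0.27 (adjusted p = 0.000134). Thinned to 2000 UMIs, the 3 differences kept their sign at 0.94, -0.93 and -0.89 but were no longer called (adjusted p = 0.270, 0.404 and 0.0688). The mean NA1b level was 0.968 in the thinned neurons. The NA1c call was also lost without replicate 4, the highest mouse (-1.09, adjusted p = 0.0761). Without the shared barcodes NA1b was below NA2 by -1.60 (adjusted p = 3.00e-05).

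NA3 was below NA1a in Kcnmb4 by 1.49 ± 0.33 (limma adjusted p = 0.000796), below NA1c by 1.41 ± 0.33 (adjusted p = 0.00121) and below NA2 by 1.36 ± 0.33 (adjusted p = 0.000958). The difference of NA2 from NA3 was 1.69 without the shared barcodes (adjusted p = 0.000278). The NA1a and NA2 calls held under all 15 alternatives, and the NA1c call was lost without replicate 4 (adjusted p = 0.0566). NA1b and NA3 differed by 0.08 ± 0.33 (adjusted p = 0.881).

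Kcnmb4 was also set against Kcnma1 within the same mouse. The log2 ratio of the 2 levels, with 0.1 added to each, was -1.27, -1.50, -1.54, -1.49 and -1.54 in NA1b. In NA1a it was 0.64, 0.85, 0.16, 1.07 and -1.15, in NA1c -0.06, 0.53, -0.87, 1.53 and -0.13, and in NA2 1.36, 0.86, 1.44, 0.57 and 1.32. In NA3 it was -0.21, -1.28 and -0.13 in replicates 2, 4 and 5, and the second of these lay within the NA1b range. With the shared barcodes left out, NA2 had 1.52, 1.36, 0.52 and 1.43 in replicates 1, 3, 4 and 5. Nothing was added to the levels there, so these values are not on the scale of the others. Transcript lengths are not accounted for, so only the change of this ratio between subtypes can be read. The NA1b ratio was below those of NA1a, NA1c and NA2 in each of the 5 mice, and below that of NA3 in 3 of 3. NA1a exceeded NA1b by 1.78 ± 0.85 (SD, n = 5), with an exact two-sided permutation p = 0.0625 (0.208 adjusted over 10 pairs), which is the smallest that 5 mice allow. NA1b minus NA3 was -0.97 ± 0.66 (SD, n = 3, exact permutation p = 0.25, the smallest that 3 mice allow, 0.357 adjusted). This comparison was chosen after the levels were seen, and no p in it could pass 0.05.

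**Figure D4:**
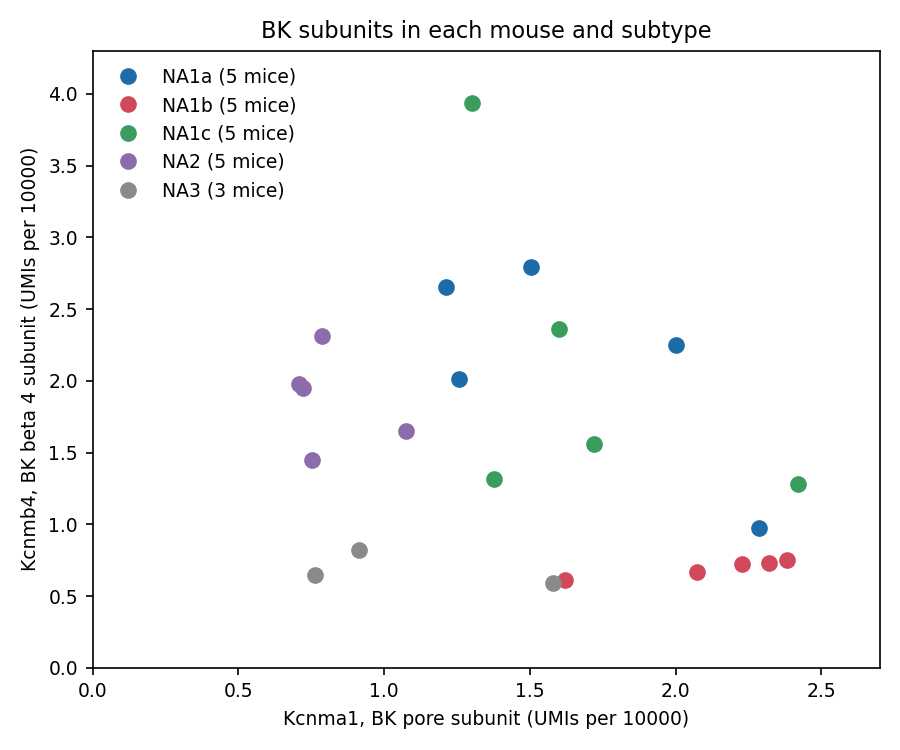
Level of Kcnmb4 (vertical axis, UMIs per 10000) against that of Kcnma1 (horizontal axis, UMIs per 10000) in each mouse and noradrenergic subtype, 1 point per mouse. The NA1b mice lie along the bottom right, with Kcnma1 from 1.62 to 2.38 and Kcnmb4 from 0.614 to 0.753, and the NA2 mice lie to the upper left.

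In single thinned neurons the BK genes were rarely seen together at this depth. Both were found in 10 of 176 NA1a neurons (5.68%, against 7.05% from the product of the separate shares), in 17 of 195 NA1b neurons (8.72% against 6.91%) and in 15 of 169 NA1c neurons (8.88% against 7.61%). In NA1b 37.4% of thinned neurons had a Kcnma1 UMI and 18.5% a Kcnmb4 UMI. The order was the other way in NA1a, at 22.2% and 31.8%. Kcnt1 and Kcnma1 were found together in 25.1% of NA1b neurons, against a product of 25.0%.

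The SK genes were sparse, and their levels lay near 1 UMI per several neurons. Kcnn2 had levels of 0.390, 0.384, 0.653, 0.535 and 0.516 in NA1b. In NA1a it had 0.112, 0.0797, 0.0790, 0.193 and 0.121, below every NA1b mouse, and in NA1c 0.113, 0.131, 0.433, 0.0380 and 0.141, where replicate 3 overlapped NA1b. In NA3 the 3 mice had 0.290, 0.209 and 0.329, and in NA2 the 5 mice had 0.295, 0, 0.0941, 0.156 and 0.0304.

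NA1a was lower than NA1b in Kcnn2 by -1.46 ± 0.38 on the log2 scale, and with no filter on low values this was not called (limma adjusted p = 0.0747). NA1b was higher than NA2 by 1.62 ± 0.38 (adjusted p = 0.00311 with no filter), and by 1.37 without the shared barcodes. NA1b was above NA1c in 5 of 5 mice by 1.26 ± 0.38, which was not called. The difference of NA1b from NA3 was 0.50 ± 0.46 and was not called either (adjusted p = 0.438). Pooled over all neurons, the Kcnn2 level was 0.436 in NA1b and 0.397 in NA3. The difference of NA2 from NA3 (-1.11 ± 0.46, adjusted p = 0.0485) was lost under 9 of 13 alternatives, among them the omission of replicate 2 or 5, and was -0.81 without the shared barcodes (adjusted p = 0.267).

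Kcnn3 (chromosome 3, 89520164 to 89675132, plus strand) had levels of 0.299, 0.556, 0.216, 0.580 and 0.885 in NA1a. In NA1b they were 0.338, 0.312, 0.426, 0.256 and 0.445, and in NA1c 0.538, 0.195, 0.324, 0.283 and 0.515. The 3 ranges overlapped and no NA1 pair was called. In NA2, 2 mice had no Kcnn3 UMI and the others had 0.236, 0.0534 and 0.0994. NA2 was lower than NA1a by 1.81 ± 0.40 (limma adjusted p = 0.000245), than NA1b by 1.50 ± 0.40 (adjusted p = 0.00151) and than NA1c by 1.50 ± 0.40 (adjusted p = 0.00130). These calls held without the shared barcodes at 1.70, 1.38 and 1.38, and also with no filter on low values. Kcnn3 passed the filter only through NA1a and NA1c, so the filter favoured the direction of their differences from NA2. The difference of NA1a from NA3 (1.31 ± 0.47, adjusted p = 0.0454) was lost under 8 of 15 alternatives. Among these were no filter and the omission of replicate 2, 4 or 5, and it was 0.67 without replicate 4 (adjusted p = 0.486). In NA3 the levels were 0.202, 0 and 0.304.

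Kcnn1 had 30 UMIs in 29 of the 1303 neurons, with levels of at most 0.194 in any mouse and noradrenergic subtype. It was found in 0 of 99 NA3 neurons. With so few UMIs in any subtype this does not show that the gene was absent there. No difference between subtypes was tested for it at this depth.

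Outside the noradrenergic subtypes the values were descriptions. The 55 Ach1 neurons of replicate 4 had levels of 2.66 for Kcnq3, 1.14 for Kcnt1, 1.21 for Kcnmb4 and 0.524 for Kcnma1. In the same neurons the satellite glia markers summed to 135, the fibroblast markers to 38.7 and the immune cell markers to 10.1. The part of such transcripts in the Ach1 levels was not tested. In Ach2 of replicates 1 and 4, Kcnmb4 was at 0.0959 and 0.276, below every mouse of the 5 noradrenergic subtypes, Kcnma1 was at 0.849 and 0.944, and Kcnt1 at 0.454 and 0.709. Without the shared barcodes the Ach2 means were 0.243 for Kcnmb4, 1.03 for Kcnma1 and 0.759 for Kcnt1. Over all Ach2 neurons Kcnmb4 was seen in 6 of 62 (9.68%, 95% Wilson interval 4.51 to 19.5%), and over all Ach1 neurons in 19 of 64 (29.7%, 19.9 to 41.8%). In the 37 Glut neurons, pooled, Kcnn3 was at 1.37 and seen in 11 (29.7%, 17.5 to 45.8%), and Kcnq5 was at 1.32 and seen in 10 (27.0%, 15.4 to 43.0%), while no Kcnn2 UMI was found (up to 8.11%). These intervals and the limit cover counting error of the pooled neurons only: 55 of the 64 Ach1 neurons came from 1 mouse, 15 Ach2 and 3 Glut neurons had shared barcodes, and the spread between mice is not in them.

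The neurons of the 3 mouse names that entered no test gave pooled levels of the same genes, though these neurons had helped to define the subtypes. Every sample of the second batch was matched to a tested mouse. If each name is a separate sample, these 3 names are therefore of the other batch, and an effect of batch was not tested. Kcnt1 was at 9.87 in 74 NA1b neurons, 2.76 in 23 NA1c, 2.01 in 134 NA1a and 0.329 in 25 NA2 neurons. Kcnmb4 was at 0.528 in NA1b, 2.39 in NA1c, 1.84 in NA1a and 0.962 in NA2. Kcnma1 was at 2.63 in NA1b, 2.30 in NA1c, 1.77 in NA1a and 0.520 in NA2. The order of the NA1 subtypes for Kcnt1 and the low Kcnmb4 of NA1b were as in the tested mice, and NA2 was lower in Kcnmb4 than NA1a and NA1c. Kcnq3 was not: it was at 2.09 in 7 NA3 neurons, from 7 UMIs. That level was above 1.96 in NA1b and 1.15 in NA2 and below 3.04 in NA1a and 3.07 in NA1c. Kcnn2 was at 0.346 in NA1b and 0.122 in NA1a, from 12 and 11 UMIs.

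The study asked whether ion channels differ between neurons with much and with little Npy, which encodes the co-transmitter neuropeptide Y. NA1a, NA1b and NA3 neurons were ranked together on their Npy level, and the bottom 30%, middle 40% and top 30% were taken as strata, with limits at 5.58 and 45.8 UMIs per 10000. In the matched mice the low stratum held 154 neurons, of which 76.6% were NA1b and 20.1% NA3, and the high stratum held 165, of which 89.1% were NA1a. Npy and subtype therefore cannot be told apart between these strata. Kcnt1 is the authors' marker of NA1b, the most frequent subtype of the low stratum. Of the 5 channel genes that passed the filter, 2 were called between high and low (Kcnmb4 higher and Kcnt1 lower), where 9.66% of 4534 genes were called, and the median difference was 0.09 for the 5 genes and -0.02 for all genes.

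Kcnt1 levels were 4.40, 6.84, 3.48, 4.79 and 2.58 in the low stratum of replicates 1 to 5 and 0.795, 4.19, 0.975, 1.24 and 0.900 in the high stratum. High was below low in 5 of 5 mice, and only replicate 2 of the high stratum reached into the low range. The log2 difference was -1.61 ± 0.19, a fold of 3.05 (limma adjusted p = 2.27e-07), and it held under all 14 alternatives. In replicate 2 the high stratum held 8 NA1b neurons of 31, against 0 or 1 in the other mice.

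Kcnmb4 levels were 0.660, 0.772, 0.933, 0.588 and 0.804 in the low stratum and 2.14, 2.66, 2.40, 2.86 and 1.03 in the high stratum. Every high value lay above every low value. The log2 difference was 1.39 ± 0.25, a fold of 2.61 (limma adjusted p = 0.000265). After thinning to 2000 UMIs it was 0.87 and no longer called (adjusted p = 0.258). The medium stratum, at 0.415 to 0.946, spanned the whole low range.

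Kcnma1 was lower in the high stratum in 5 of 5 mice, by -0.38 ± 0.20, which was not called (limma adjusted p = 0.275). Kcnq3 and Kcnq5 differed by 0.09 ± 0.19 and 0.18 ± 0.29 (adjusted p = 0.833 and 0.778). Kcnn2 and Kcnn3 did not pass the filter here, and Kcnn2 had a mean of 0.516 ± 0.173 (SD, n = 5) in the low and 0.111 ± 0.0879 in the high stratum. All 8 tested satellite glia markers were lower in the high stratum, by a median of 1.81 on the log2 scale, and their part in these differences was not tested.

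**Figure D5:**
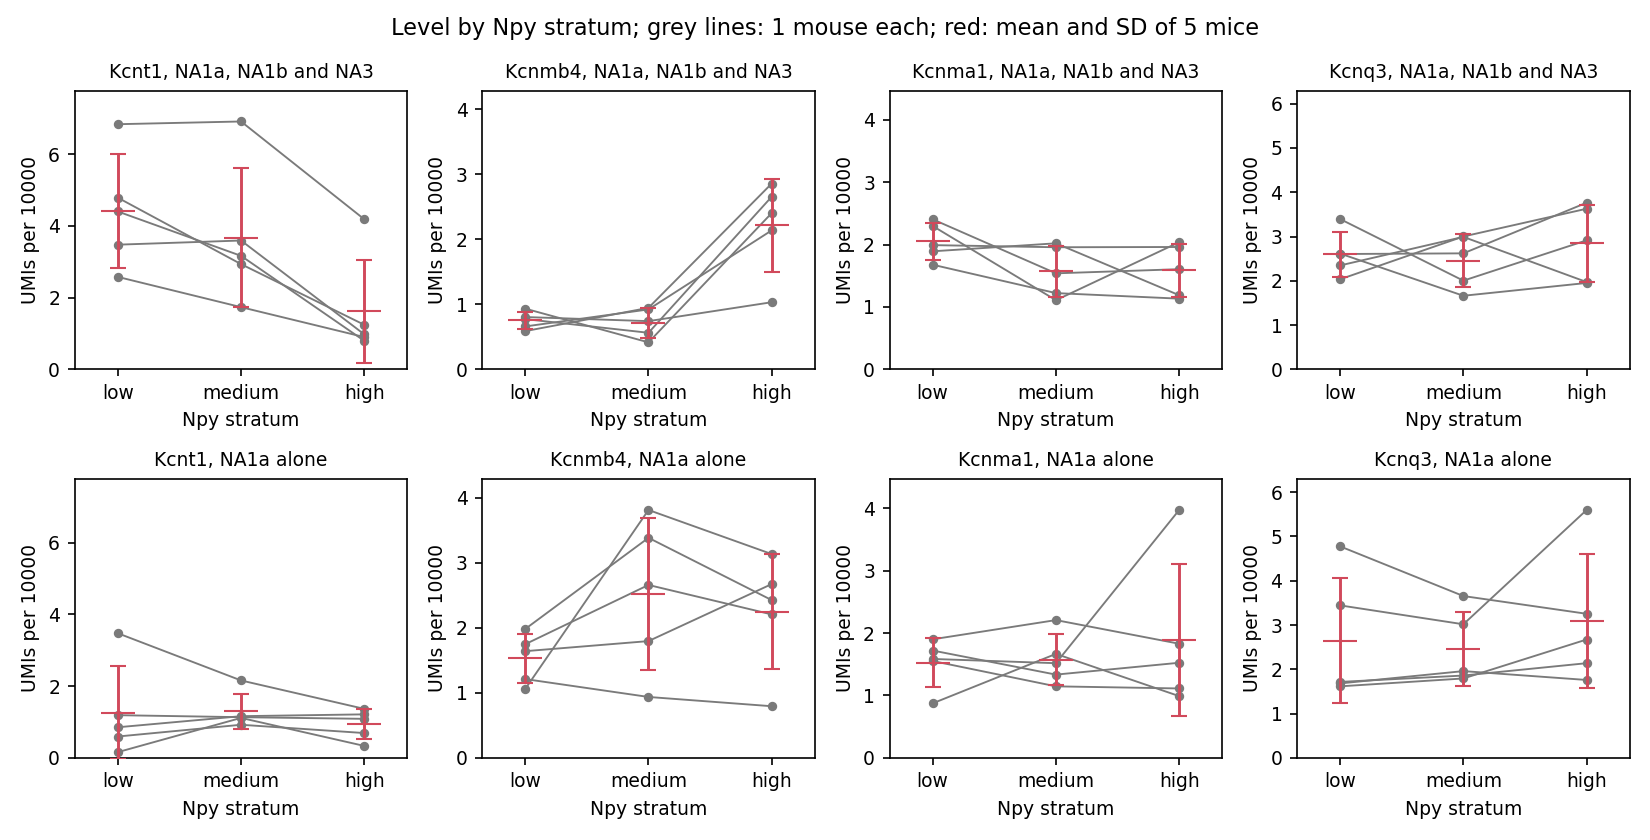
Levels (vertical axes, UMIs per 10000, from 0) of Kcnt1, Kcnmb4, Kcnma1 and Kcnq3 in the low, medium and high Npy strata (horizontal axes), for NA1a, NA1b and NA3 neurons together (top row) and for NA1a alone (bottom row). Grey lines join the strata of 1 mouse and red bars are the mean and SD of 5 mice. In the top row Kcnt1 was lower and Kcnmb4 higher in the high than in the low stratum of every mouse, and in the bottom row neither was called.

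Within NA1a alone, where each mouse's neurons were ranked on Npy separately, no channel gene was called. Of 6 tested, 0 were called by limma and 0 had an unadjusted p under 0.05, where 0.286% of 4550 genes were called and 615 had an unadjusted p under 0.05. Kcnt1 was at 0.595, 3.48, 0.853, 1.19 and 0.159 in the low and 0.692, 1.37, 1.21, 1.09 and 0.332 in the high NA1a neurons, and the difference was 0.00 ± 0.35 on the log2 scale. Kcnmb4 was at 1.64, 1.06, 1.75, 1.98 and 1.21 in the low and 2.67, 3.13, 2.21, 2.43 and 0.794 in the high NA1a neurons. High was above low for Kcnmb4 in 4 of 5 mice, by 0.44 ± 0.28, and the test did not pass (adjusted p = 0.489). Strata of 55 neurons over 5 mice leave wide errors, and the difference between this result and that over the 3 subtypes was not tested.

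Across single neurons of a mouse with a UMI of both genes, the Pearson correlation of Kcnt1 with Npy (natural log scale) was -0.54 to -0.28 in the 5 mice over NA1a, NA1b and NA3 (47 to 101 neurons). Over NA1a alone it was -0.30 to 0.01 in the 4 mice with enough neurons. For Kcnmb4 it was -0.13 to 0.37 over the 3 subtypes and -0.25 to 0.41 over NA1a. Depth and subtype are shared by these points, and the values are descriptions.

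Genes that act on these channels were read from fixed lists. Among 17 tested genes of M-current control (among them Gq-coupled receptors, phospholipase C, phosphoinositide kinases and anchoring proteins), the same 1 was called between NA1a and NA1b and between NA1b and NA1c. It was Plcb4, a phospholipase C that lies downstream of Gq, at 4.56 ± 0.704 (SD, n = 5) in NA1a, 2.18 ± 0.519 in NA1b and 5.12 ± 0.746 in NA1c. NA1a was above NA1b by 1.05 ± 0.29 (SE) on the log2 scale (limma adjusted p = 0.0257) and NA1b below NA1c by 1.22 ± 0.29 (adjusted p = 0.0123). Between the Npy strata Plcb4 was higher in the high stratum (1.18 ± 0.17, limma adjusted p = 5.52e-06).

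Against NA2 the M-current control genes moved both ways. From NA1a 6 of 17 were higher and 3 lower (48.6% of all genes were called), from NA1b 6 higher and 2 lower (56.3% of all genes), and from NA1c 7 higher and 6 lower (59.9% of all genes), with medians of 0.05, 0.29 and 0.66 beside 0.23, 0.28 and 0.29 for all genes. Ank3, the ankyrin G that holds M channels at the axon initial segment, was at 1.49 ± 0.505 in NA2 and 5.73 ± 0.662 in NA1a (log2 difference 1.93 ± 0.19, limma adjusted p = 1.07e-10). Leaving out the shared barcodes, 18 of the list were tested, 6 higher and 4 lower from NA1a, 6 and 2 from NA1b, and 8 and 4 from NA1c, and the Ank3 difference of NA1a from NA2 was 1.65 (adjusted p = 2.48e-08). Against NA3, where 19.1%, 22.6% and 26.8% of all genes were called, 2 of the 17 were higher in NA1a, 3 in NA1b and 6 in NA1c, with none lower, and between NA2 and NA3 4 were higher and 2 lower in NA2 (4 and 3 of 18 without the shared barcodes), where 39.2% of all genes were called.

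Calcium channels, ryanodine receptors and calcium pumps supply and clear the calcium that BK and SK channels sense, and 8 of the 22 measured were tested. By limma 0 were called between NA1a and NA1b, with 2 at an unadjusted p under 0.05, and 0 between NA1b and NA1c, with 0 under it. The 2 had NA1a minus NA1b differences of -0.63 ± 0.29 for the ryanodine receptor Ryr2 (unadjusted p = 0.0356) and -0.70 ± 0.25 for the P/Q-type channel Cacna1a (unadjusted p = 0.00742). Cacna1a was called lower in NA1a than in NA1c (-0.84 ± 0.25, adjusted p = 0.0368). Against NA2, 7 of the 8 were higher in each of NA1a, NA1b and NA1c and none lower, with medians of 1.51, 1.60 and 1.79, where 48.6%, 56.3% and 59.9% of all genes were called. With NA2 limited to unshared barcodes, 6, 7 and 6 were higher, with medians of 1.48, 1.29 and 1.49. Ryr2 was at 0.228 ± 0.315 in NA2 against 3.68 ± 0.295 in NA1a, 5.84 ± 1.18 in NA1b and 4.79 ± 1.11 in NA1c. Against NA3, 6, 6 and 5 of the 8 were higher in NA1a, NA1b and NA1c (19.1%, 22.6% and 26.8% of all genes called), and 4 of the 8 were lower in NA2 than in NA3 (39.2% of all genes called), with or without the shared barcodes. Between the Npy strata Ryr2 and the calcium pump Atp2b2 were lower in the high stratum (-0.46 ± 0.15 and -0.64 ± 0.21, adjusted p = 0.0471 and 0.0419), where 9.66% of all genes were called, and within NA1a 0 of the 8 were called by limma, with 2 at an unadjusted p under 0.05.

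Of the leak and inward rectifier channels 20 were measured and only Kcnk10, a two-pore leak channel, was tested. It was higher in NA1a, NA1b and NA1c than in NA2 (1.12, 1.28 and 1.03, adjusted p = 0.0308, 0.0120 and 0.0398) and was called in no other comparison of subtypes or strata. These calls were lost without the shared barcodes (0.59, 0.75 and 0.50, adjusted p = 0.299, 0.166 and 0.356).

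The genes whose levels ran most like those of a channel gene were taken over the 23 mouse and subtype profiles of the fit, on the log2 scale. For Kcnt1 they were Supt5 (Pearson r = 0.93), Miat (0.91) and Zfr2 (0.91), and for Kcnma1 Rapgef6 (0.88), Nfat5 (0.87) and Cadps (0.87). For Kcnn3 they were Pde4d (0.90), Zmym3 (0.86) and Maml3 (0.85), for Kcnmb4 Tmc3 (0.80), Ncald (0.77) and Mcub (0.77), and for Kcnn2 Nfib (0.79), Tyro3 (0.78) and Slc18a1 (0.75). Kcnq5 ran most like Nfasc (0.82), Nrcam (0.80) and Fsd1l (0.76), and Kcnq3 like 9330182L06Rik (0.73), Zfpm2 (0.72) and Nrcam (0.72). The profiles share mice and subtypes and are not independent, and these r are descriptions.

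Few neurons carried a tracer transcript. Of the 6 neurons with GFP, labelled from the heart, 2 had a Kcnt1 UMI, 3 a Kcnmb4 UMI, 2 a Kcnma1 UMI and 2 a Kcnq3 UMI. Of the 20 with tdTomato, labelled from the front paw, 15 had a Kcnt1 UMI, 7 a Kcnmb4 UMI, 6 a Kcnma1 UMI and 10 a Kcnq3 UMI. Median depths were 5836 and 2700 UMIs per neuron. These numbers are too few to compare heart and paw.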

How the data were processed

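Dissociated cells of mouse stellate ganglia were profiled by droplet single-cell RNA sequencing. The authors counted reads with Cell Ranger (2.1.1, mm10), kept cells by gene number, UMI number and mitochondrial share, clustered them in Seurat and deposited normalized values of the neurons as the natural log of 1 + UMIs per 10000, with a subtype for each neuron. The submitters' processing notes also name Scanpy. No doublet step is named, and none was added here.

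The values were turned back into UMIs: 100% of the values above 0 were whole multiples of the smallest in their neuron, within 0.01 UMI. Neurons were averaged per mouse and subtype, or per mouse and Npy stratum, and tested with limma 3.58.1 (R 4.3.3) on log2(level + 0.1), with an intensity trend, the mouse as a block and adjustment over all genes passing the filter. Profiles needed at least 10 neurons, or 5 within NA1a. A fold is on the log2(level + 0.1) scale. The mouse pairs the profiles, and residuals of profiles from the same mouse correlated at 0.071 on average between subtypes, 0.186 between strata and 0.102 within NA1a. Whether the mice were processed separately is not given, so p-values measure the spread between these samples.

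The exact permutation test on the BK ratio (Python 3.11.15, scipy 1.17.1) and its pairs were chosen after the levels had been seen. Coordinates are from GENCODE M21 (GRCm38, the same build as mm10). The steps across genes were run on simulated profiles of equal depth, with changed genes at higher levels than Kcnq5, Kcnn2 and Kcnn3. That run does not show how the tests do in small profiles or for these sparse genes. Named genes were the 9 members, the 3 genes most like each tested member, and up to 3 called genes with the smallest p from each list in a comparison described. The members and lists were chosen with earlier results of these data known. The text leaves out some genes that the rule picked. No sequence is shown. Alternatives were pseudocounts of 0.5 and 1, no filter, no mouse block, omission of each mouse, thinning to 2000 UMIs, summed UMIs, means of the natural log values, centring on the median gene, profiles of at least 5 neurons, levels pooled over all neurons, the NA1 subtypes alone, and NA1c added to the Npy ranking. Leaving out neurons with shared barcodes was added after the data were seen.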

Additional observations from a re-analysis of the deposited data

Results flagged for a closer look

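Among 61 groups of 5 mice, the level of a channel gene in 1 mouse stood apart from the other 4 in 6 groups by Dixon's test at the 95% level, where chance flags about 1 group in 20. Kcnma1 in NA2 was 1.08 in replicate 4 and 0.709 to 0.788 in the others, and Kcnn2 in NA1c was 0.433 in replicate 3 and 0.0380 to 0.141 in the others. Kcnt1 in the Npy-high neurons was 4.19 in replicate 2 and 0.795 to 1.24 in the others, and in the Npy-medium NA1a neurons it was 2.16 in the same mouse and 0.923 to 1.16 in the others. Kcnq5 in the Npy-low NA1a neurons was 1.10 in replicate 4 and 0.341 to 0.531 in the others. Kcnma1 in the Npy-high NA1a neurons was 3.97 in replicate 5 and 0.989 to 1.83 in the others.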

How the results depend on the processing

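Over the 10 pairs of subtypes there were 32 calls of a tested gene, and between the Npy strata 2. No called difference changed sign under any alternative. Thinned to 2000 UMIs there were 20 calls between subtypes and 1 between strata, with fewer neurons per profile. Without the mouse as a block there were 27 and 2, and the block changed no call between strata or within NA1a. Omitting 1 mouse at a time gave 24 to 29 calls between subtypes and 2 between strata. The other alternatives gave 26 (no filter) to 40 (at least 5 neurons) calls over all pairs, 31 without the shared barcodes, and, with the NA1 subtypes alone, 5 against 5 for the same 3 pairs. The strata gave 2 or 3. Within NA1a there were 0 calls under every alternative run. Among the calls lost after thinning were those of Kcnq3 and Kcnq5 over NA3 and those of Kcnmb4 between NA1b and NA1a, NA1c or NA2.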
